A study of Mus musculus with 4 samples.

Results

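The genes described here are 10 heat shock genes of the mouse, taken as the rows of the count matrices with the symbols Hspa1a, Hspa1b, Hsph1, Dnajb1, Hspb1, Hspa8, Hsp90aa1, Hspe1, Hspd1 and Bag3. They are 10 of the 32285 genes counted, and every member had a row and UMIs in every library. The libraries were made from whole lungs, 2 from Galt gene-edited mice (GAL) and 2 from wild-type mice (WT). The Galt protein is an enzyme needed to break down galactose. Strain, sex, age, the nature of the edit and the number of animals per library are missing from the labels. Lungs had been digested with collagenase and DNase in warm buffer, and single cells had been captured in droplets, so the RNA is that of cells after dissociation.

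Galt itself was read at 12.7 and 11.1 CPM (UMI counts scaled to a common library total) in GAL lungs, against 12.0 and 10.97 CPM in WT lungs, so its RNA level did not tell the groups apart and gives no check of the labels. After filters 10967 and 10757 cells of the GAL libraries and 12441 and 13515 cells of the WT libraries were kept, with median depths of 3709 and 2841 UMIs in GAL and 2361 and 2363 UMIs in WT. Each pair of libraries shared 92 to 115 cell barcodes, at most 0.939% of the smaller library. Cells were sorted into types by counting detected marker genes, none of which is a heat shock gene, and 87.5% of 47680 cells were placed. A type is called "like" its name, since only RNA was measured. Tests were run in the 18 types that had 30 or more cells per library. Markers of the lineages went with the names: Ptprc of leukocytes and the summed endothelial, epithelial and mesenchymal markers were at least 194, 2667, 1915 and 1087 CPM in the types of their own lineage and at most 39.0, 109, 370 and 283 CPM in all others. Pecam1 and Cdh5 of the endothelial list had also served to place general capillary-like cells. For that type the endothelial value is therefore no independent check of the name.

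Heat shock proteins are chaperones, which hold unfolded proteins, help them fold or pass them on for destruction. HSP70 proteins bind short greasy stretches of a client in a cycle driven by ATP, J-domain proteins such as DNAJB1 bring clients to them, and HSP110 and BAG proteins release the spent nucleotide. Part of these genes is switched on by heat, oxidants or tissue handling through heat shock factor 1, which binds inverted repeats of nGAAn, while others are made in resting cells at all times. HSP60 and HSP10 form the folding chamber inside mitochondria.

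Hspa1a and Hspa1b are the pair on which most of the comparison between groups turns, and they are close to the same gene. They lie in a row on the minus strand of chromosome 17, Hspa1b (ENSMUSG00000090877) at chr17:34956436-34959238 and Hspa1a (ENSMUSG00000091971) at chr17:34969190-34972156 (GRCm38, GENCODE M21 annotation), with 9951 bases between them. The coding sequences were 99.43% identical and the 250 bases before the start of transcription 98.8% identical, whereas the stretches after the stop codon, of 810 bases in Hspa1a and 643 in Hspa1b, aligned at 47.31%. Counting from the end of the transcript can therefore tell them apart where reads lie after the stop codon, but how the authors counted reads that fit both is not stated in the labels. Their starts are shown because both carry the same element, GAANNTTC in capitals, 104 bases before the start. The runs cover chr17:34972157-34972276 and chr17:34959239-34959358, both on the minus strand (RefSeq promoters, GRCm38.p6), and end just before the start of transcription.
Hspa1a: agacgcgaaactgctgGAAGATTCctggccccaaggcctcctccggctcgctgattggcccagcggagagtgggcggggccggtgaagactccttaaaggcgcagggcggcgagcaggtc
Hspa1b: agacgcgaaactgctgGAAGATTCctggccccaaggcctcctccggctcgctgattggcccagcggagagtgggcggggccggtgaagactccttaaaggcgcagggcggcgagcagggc

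The other 2 stretches belong to the member with the sharpest difference between cell types, Hspb1, and to the member with the longest element, Hspe1. In Hspb1 the capitals mark the motif GAANNTTC at both its places, 117 and 97 bases before the start, in chr5:135887789-135887858 on the plus strand. In Hspe1 they mark overlapping elements of 3 units (TTCNNGAANNTTC and GAANNTTCNNGAA) from 89 bases before the start, in chr1:55088038-55088097 on the plus strand. The same element lies 144 bases before the second of 2 starts of Hspd1. It lies between that start and the start of Hspe1, and from there the 2 genes are read away from each other.
Hspb1: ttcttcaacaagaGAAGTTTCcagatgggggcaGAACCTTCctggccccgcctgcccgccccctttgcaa
Hspe1: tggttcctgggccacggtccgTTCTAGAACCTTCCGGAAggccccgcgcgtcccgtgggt
Of the 10 members, 8 matched the RefSeq promoter table, and 7 of those 8 held an element of 2 units (GAANNTTC or TTCNNGAA, each of which reads the same on both strands) between 250 bases before and 50 bases after a start, where 15.056% of all promoters of that length do. An element of 3 units was found in 3 members (Hsph1, Hspe1 and Hspd1), against 0.603% of all promoters. Dnajb1 held none of these letters in its window. Members were counted by gene, over 11 promoters, whereas the shares of all are by single promoter. Hspe1 and Hspd1 were both counted for the element they share. Elements of 3 units contain those of 2 units, so the counts overlap, and a match is a description of letters, not of binding.

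The other members lie apart from each other, apart from Hspd1 and Hspe1. Hspd1 (ENSMUSG00000025980) spans chr1:55077835-55088243 on the minus strand and Hspe1 (ENSMUSG00000073676) chr1:55088132-55091307 on the plus strand, so they overlap by 112 bases. Hspb1 (ENSMUSG00000004951) is at chr5:135887919-135889563 and Hsph1 (ENSMUSG00000029657) at chr5:149614287-149636376. Bag3 (ENSMUSG00000030847) is at chr7:128523616-128546981, Dnajb1 (ENSMUSG00000005483) at chr8:83608193-83612653 and Hspa8 (ENSMUSG00000015656) at chr9:40800984-40810087. Hsp90aa1 (ENSMUSG00000021270) is at chr12:110690605-110702728.

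The first question was where in the lung each gene is read. The levels differed strongly between cell types: of 180 pairs of a member and a type, 143 passed the edgeR quasi-likelihood test of that type against the mean of the other 17, with libraries as blocks and an adjusted p under 0.05. Differences between cell types are common in a lung: over the 13310 genes tested, 48.5% of pairs of a gene and a type passed, 28.9% as higher and 19.6% as lower, with 24.9% to 61.5% in single types. Of the 143 pairs, 111 passed under all 7 alternatives tried and 0 changed direction, and the 32 that were lost in some alternative had a log2 difference of at most 1.58. Levels here are CPM after 1 scaling over all 72 sums of a library and a type, and n = 4 libraries for every mean ± SD. Sums over lists of marker or immediate early genes are throughout CPM of all UMIs of the cells summed, without this scaling. They are not on the same scale as the levels of members. Levels are compared between types within a gene and not between genes. In sums, fewer cells with the RNA and less RNA per cell cannot be told apart.

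**Figure D1:**
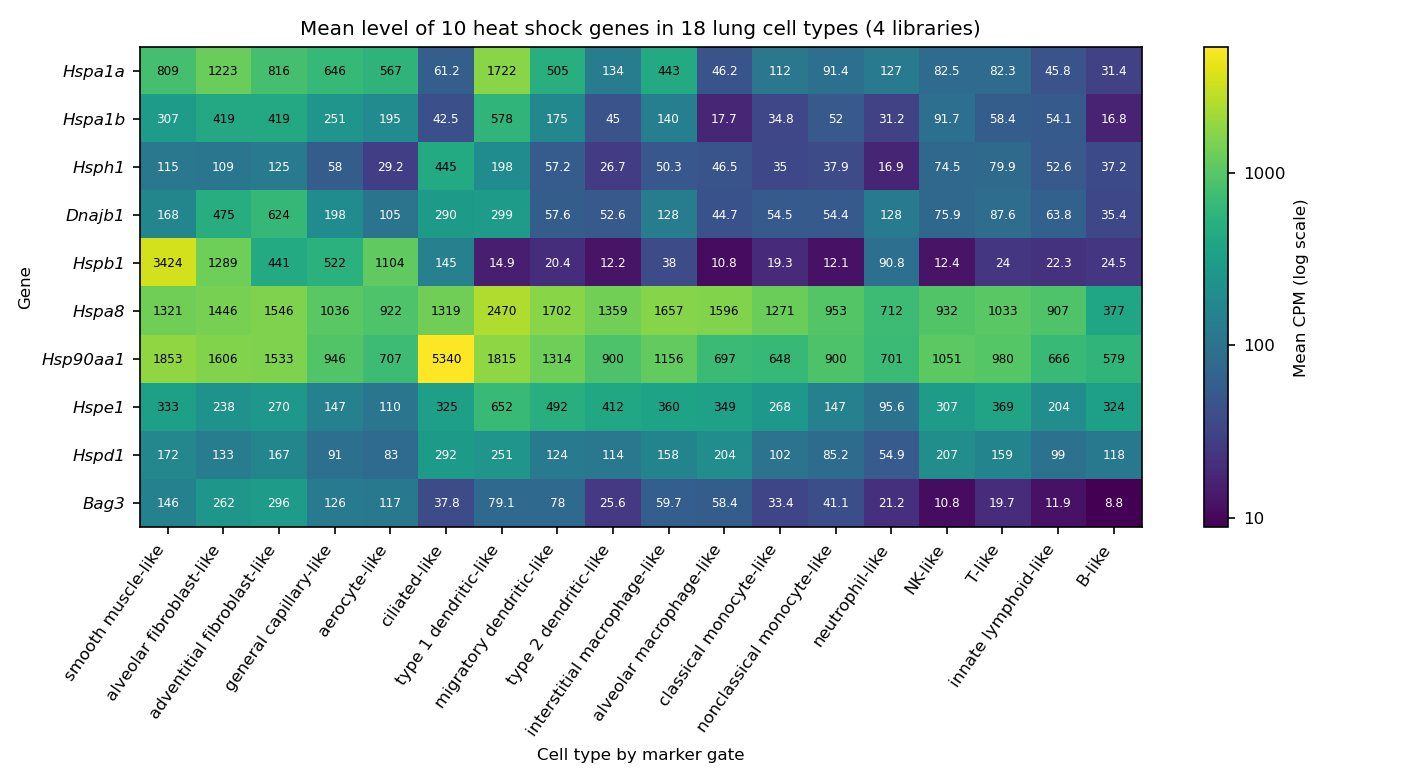
Mean level of each gene (rows) in each of the 18 cell types (columns), in CPM over the 4 libraries, with colour on a log scale and the mean printed in each field. Hspb1 stands out in smooth muscle-like and alveolar fibroblast-like cells, Hsp90aa1 and Hsph1 in ciliated-like cells, and Hspa1a in type 1 dendritic-like cells, while B-like cells are low for most members.

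Stress-inducible HSP70, encoded by Hspa1a and Hspa1b, was highest in type 1 dendritic-like cells, the cells that present antigen of dead cells to cytotoxic T cells. Hspa1a stood there at 1948 and 2738 CPM in the GAL libraries, against 670 and 1532 CPM in the WT libraries. The spread between libraries is wide, and alveolar fibroblast-like cells, next in order, overlapped with 1188 and 1966 CPM in GAL and 677 and 1061 CPM in WT. The log2 difference of type 1 dendritic-like cells from the other types was 3.15 ± 0.18 for Hspa1a and 2.68 ± 0.21 for Hspa1b (SE). Below the fibroblast types came smooth muscle-like (mean 809 ± 239 CPM), general capillary-like (646 ± 101 CPM), aerocyte-like (567 ± 291 CPM), migratory dendritic-like (505 ± 352 CPM) and interstitial macrophage-like cells (443 ± 195 CPM). The other 10 types had means from 134 CPM (type 2 dendritic-like) to 31.4 CPM (B-like). Hspa1a thus split the types into 8 that passed as higher and 10 that passed as lower, and all 17 neighbours in the order overlapped in their library ranges. Hspa1b gave the same 8 types as higher, with 578 ± 502 CPM in type 1 dendritic-like and 16.8 ± 5.17 CPM in B-like cells, and 7 as lower.

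Dendritic-like cells did not share this level. Type 1 dendritic-like cells averaged 1722 CPM of Hspa1a, migratory dendritic-like cells 505 CPM and type 2 dendritic-like cells 134 CPM. The same holds for the 2 macrophage types, since interstitial macrophage-like cells had 567 and 575 CPM in GAL and 160 and 471 CPM in WT, whereas alveolar macrophage-like cells had 44.7 and 67.7 CPM in GAL and 35.4 and 36.9 CPM in WT. These ranges do not overlap. The share of cells with at least 1 Hspa1a UMI followed the level: 62.4% and 79.1% of type 1 dendritic-like cells in GAL and 37.3% and 61.1% in WT, against 7.57% and 5.27% of B-like cells in GAL and 2.90% and 3.36% in WT. Median depths were 8164 to 10251.5 UMIs in type 1 dendritic-like and 1467.5 to 2280 UMIs in B-like cells. After each cell was thinned to 1000 UMIs, the share in type 1 dendritic-like cells was 44.0% and 64.3% in GAL and 21.8% and 43.6% in WT, still above the B-like cells of every library (at most 3.43%).

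Hspa8 encodes HSC70, the HSP70 of resting cells that also strips clathrin coats from vesicles. Its highest mean was 6.55 times its lowest, the smallest such ratio among the cytosolic members, and 15 of 17 neighbours in the order overlapped. Type 1 dendritic-like cells were again first, at 2627 and 2515 CPM in GAL and 1890 and 2847 CPM in WT, apart from migratory dendritic-like cells (1823 and 1630 CPM in GAL, 1608 and 1745 CPM in WT). B-like cells were last at 377 ± 48.8 CPM, 1.72 ± 0.14 below the other types on the log2 scale (SE), and did not overlap with neutrophil-like cells (712 ± 72.9 CPM). T-like and NK-like cells, the other lymphocytes, had 1033 ± 108 and 932 ± 276 CPM.

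Hsp90aa1, the inducible cytosolic HSP90, which holds kinases and hormone receptors in a form ready to act, was highest in ciliated-like cells. These cells carry the motile cilia of the airways. They had 4608 and 4459 CPM in GAL and 5935 and 6358 CPM in WT, a mean of 5340 ± 949 CPM, and the next type, smooth muscle-like, had 1853 ± 324 CPM. The ranges of the 2 types are far apart, and the log2 difference of ciliated-like cells was 2.46 ± 0.10 (SE). Hsph1, an HSP110 that serves as nucleotide exchange factor of HSP70, had the same first type, with 380 and 244 CPM in GAL and 546 and 612 CPM in WT (log2 difference 2.99 ± 0.17). In the rest of the types the mean of Hsph1 ran from 198 CPM in type 1 dendritic-like to 16.9 CPM in neutrophil-like cells. Type 1 dendritic-like cells overlapped with ciliated-like cells, at 324 CPM in GAL replicate 2. Ciliated-like cells were at the same time among the types that passed as lower for Hspa1a (61.2 ± 23.5 CPM) and Hspa1b (42.5 ± 29.3 CPM), although the Hspa1b call was lost with RLE normalization. In these cells the inducible HSP70 pair was thus below the mean of the other types where Hsp90aa1 and Hsph1 were above it.

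**Figure D2:**
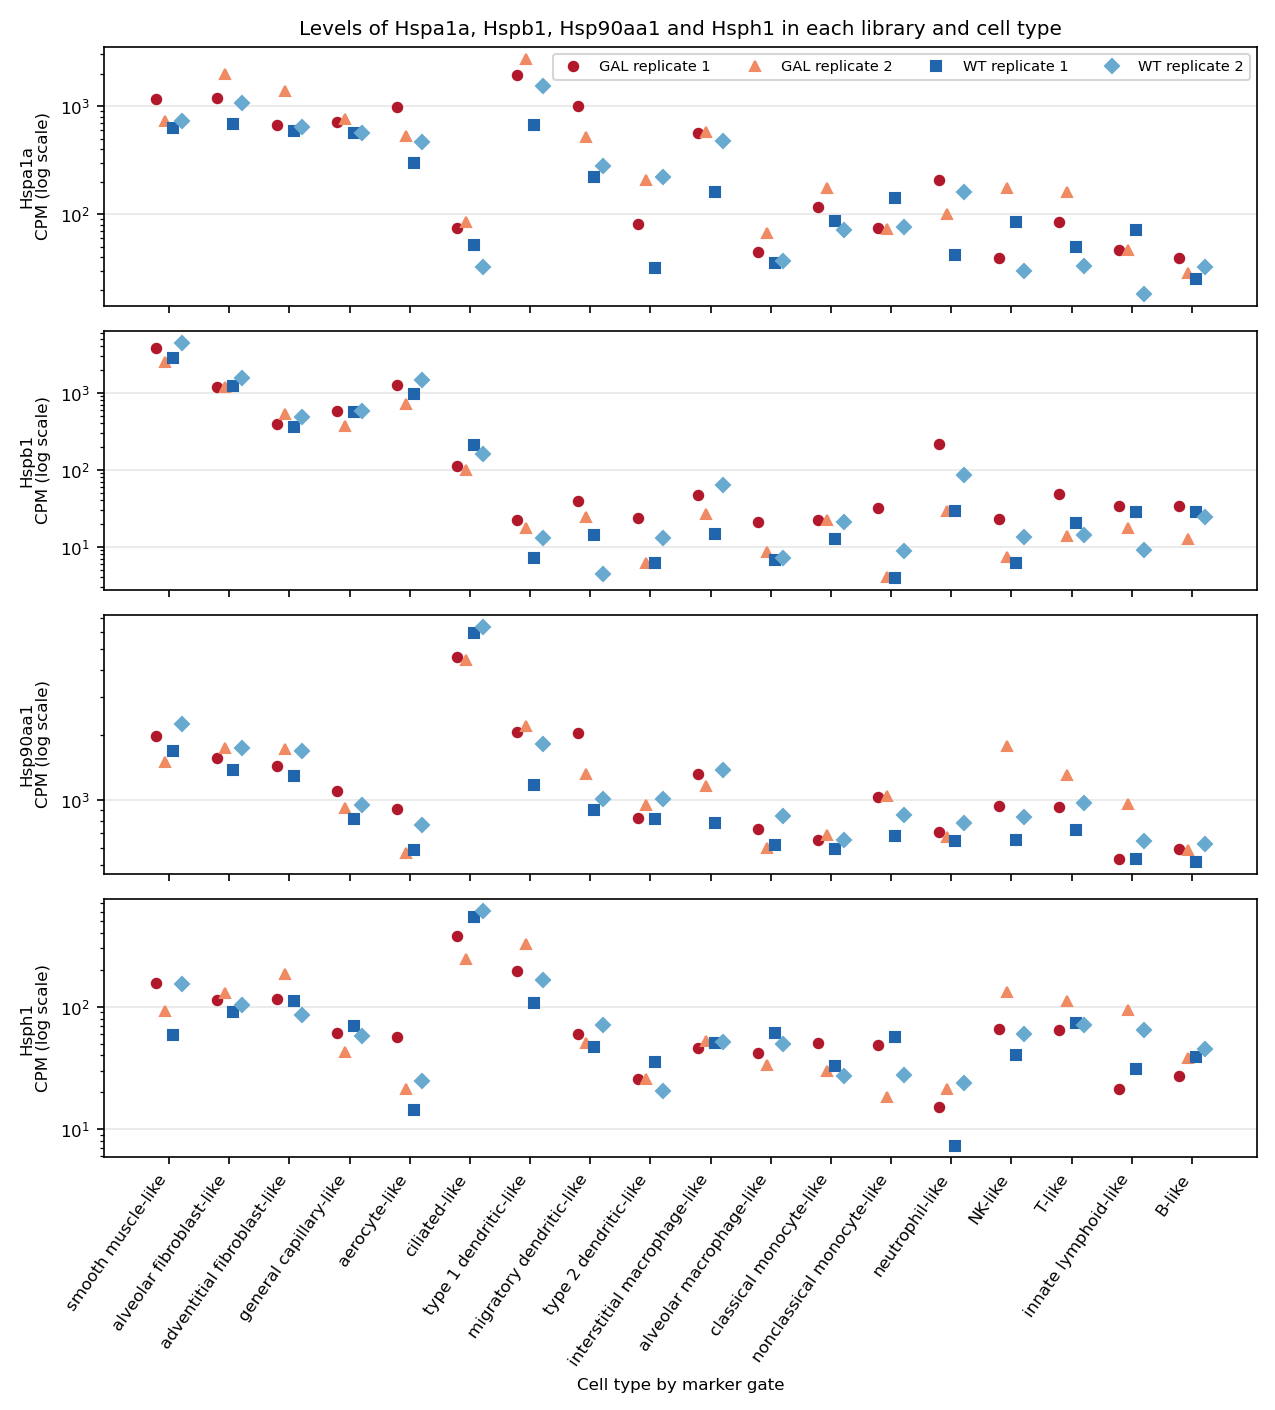
Levels of Hspa1a, Hspb1, Hsp90aa1 and Hsph1 (panels, CPM on log axes) in each of the 18 cell types, with 1 point per library, GAL in red and orange and WT in blue. Hspb1 drops by more than an order of magnitude between stromal and most immune types in every library, while the Hspa1a points of 1 type spread widely.

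Dnajb1 and Bag3, both partners of HSP70, were highest in fibroblasts. DNAJB1 delivers clients to HSP70, and BAG3 releases clients from it and links it to selective autophagy. Dnajb1 had 630 and 610 CPM in GAL and 550 and 704 CPM in WT adventitial fibroblast-like cells, and Bag3 had 316 and 297 CPM in GAL and 299 and 273 CPM in WT. Alveolar fibroblast-like cells were next, at 475 ± 103 CPM of Dnajb1 and 262 ± 46.6 CPM of Bag3, and overlapped with the first type for both genes. The log2 differences of adventitial fibroblast-like cells were 2.65 ± 0.12 for Dnajb1 and 2.77 ± 0.10 for Bag3. B-like cells were last for both, at 35.4 ± 8.25 CPM of Dnajb1 and 8.80 ± 2.65 CPM of Bag3. Bag3 was also low in NK-like (10.8 ± 2.57 CPM) and innate lymphoid-like cells (mean 11.9 CPM).

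Hspb1 encodes HSP27, a small heat shock protein that binds actin filaments and unfolded proteins without using ATP. It had the widest range over cell types among the members. Smooth muscle-like cells had 3848 and 2534 CPM in GAL and 2853 and 4461 CPM in WT, more than any library of any other type, and a log2 difference of 6.03 ± 0.14 (SE). Alveolar fibroblast-like (1289 ± 170 CPM), aerocyte-like (1104 ± 334 CPM), general capillary-like (522 ± 99.9 CPM) and adventitial fibroblast-like cells (441 ± 76.2 CPM) followed. The ratio of the highest to the lowest mean was 317, that of smooth muscle-like over alveolar macrophage-like cells (10.8 ± 6.64 CPM). After each cell was thinned to 1000 UMIs, Hspb1 was found in 87.6% and 68.3% of smooth muscle-like cells in GAL and 82.4% and 86.1% in WT. It was found in 1.84% and 1.23% of thinned alveolar macrophage-like cells in GAL and in 0.513% and 1.24% in WT, and before thinning in 15.2% and 6.42% in GAL and 5.47% and 6.16% in WT. In 11 of 18 types it passed as lower, all of them immune, and neutrophil-like cells (90.8 ± 89.5 CPM) were the immune type with most.

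At these low levels Hspb1 went with the library. GAL replicate 1 was the highest of the 4 libraries in 11 of 12 immune types, for example in neutrophil-like cells, with 219 and 29.1 CPM in GAL and 29.3 and 85.9 CPM in WT. Summed mesenchymal markers (Col1a1, Col1a2, Col3a1 and Pdgfra) were highest in GAL replicate 1 in 8 of the 12 immune types, in WT replicate 1 in 3 (B-like, innate lymphoid-like and migratory dendritic-like) and in GAL replicate 2 in 1 (classical monocyte-like). In those last 4 types Hspb1 was highest in GAL replicate 1, in classical monocyte-like cells by only 22.1 CPM against 21.9 CPM in GAL replicate 2. In alveolar macrophage-like cells the mesenchymal sum was 33.1 and 14.9 CPM in GAL and 9.50 and 8.67 CPM in WT. Endothelial markers (Pecam1, Cdh5 and Cldn5) were highest in GAL replicate 1 in 8 of 12 immune types too, and had 28.0 and 18.5 CPM in GAL and 8.27 and 14.5 CPM in WT in the same cells. Their part in the Hspb1 level was not tested.

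Hspe1 (HSP10) and Hspd1 (HSP60) are the lid and the barrel of the mitochondrial chaperonin. Their highest means were 6.82 and 5.32 times their lowest, near the 6.55 of Hspa8, where the ratios of the other 7 members ran from 9.23 to 317. Hspe1 was highest in type 1 dendritic-like cells at 652 ± 84.9 CPM, followed by migratory (492 ± 61.6 CPM) and type 2 dendritic-like cells (412 ± 70.7 CPM), so that all 3 dendritic types led. Hspd1 was highest in ciliated-like cells at 292 ± 68.5 CPM, overlapping with type 1 dendritic-like cells at 251 ± 32.9 CPM. Neutrophil-like cells were last for both, at 95.6 ± 20.3 CPM of Hspe1 and 54.9 ± 12.8 CPM of Hspd1. The endothelial types were low as well: aerocyte-like cells had 110 ± 29.0 CPM of Hspe1 and 83.0 ± 22.3 CPM of Hspd1.

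Seen by cell type, 5 types passed as higher for most members. Type 1 dendritic-like cells passed as higher for 9 of 10 members, where 26.4% of all genes did, and the exception was Hspb1 at 14.9 ± 6.47 CPM. Adventitial fibroblast-like and smooth muscle-like cells passed for 9 each, beside 34.2% and 23.7% of all genes, and alveolar fibroblast-like cells for 8, beside 35.2%. Ciliated-like cells passed as higher for 6, beside 31%, and as lower for 2, the Hspa1a and Hspa1b described above. The types that passed as lower for 8 members were B-like (22.1% of all genes lower), neutrophil-like (21.1%), classical monocyte-like (13.2%) and innate lymphoid-like cells (12.8%). B-like cells were higher in 1, Hspe1, at 324 ± 26.4 CPM. Immediate early genes, a list of 18 genes such as Fos and Jun that cells switch on within minutes, summed to 37742 and 27981 CPM in GAL and 38286 and 40470 CPM in WT in alveolar fibroblast-like cells. In B-like cells they summed to 5589 and 3914 CPM in GAL and 4430 and 4837 CPM in WT. Their part in the order of the types was not tested.

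As a description, the members fell into groups by their profiles over the 72 sums of a library and a type, which share libraries and so are not independent. Pearson's r of log2 CPM was 0.90 between Hspa1a and Hspa1b, 0.81 between Hspa1a and Bag3, 0.84 between Hsph1 and Hsp90aa1, and 0.72 between Hspe1 and Hspd1. Between Hspa1a and Hspd1 it was 0.04. Among 6055 genes with a mean of at least 20 CPM, those most like Dnajb1 were Egr1 (r = 0.85), Jun (0.83) and Fos (0.81), which are immediate early genes. Those most like Hspb1 were Fermt2 (0.96), Nfib (0.95) and Nexn (0.94). Hspd1 was most like Chordc1 (0.76), Cacybp (0.75) and Stip1 (0.74), Hsph1 like Nudc, Pebp1 and Mnat1 (0.73 to 0.68), and Hsp90aa1 like Cfap45 (0.79), Nudc and Ptges3. Hspe1 was most like Ran, Cct6a and C1qbp (0.82 to 0.79), Bag3 like Ppfibp1, Fkbp9 and Rab12 (0.86 to 0.83), and Hspa8 like Itm2c, Tagln2 and Anxa5 (0.79 to 0.73). For Hspa1a these genes were Phactr2, Cpq and Fgfr1 (0.76 to 0.75), and for Hspa1b Mmp14, Gnb4 and Eid1 (0.71 to 0.67).

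Within the inducible HSP70 pair, the part read as Hspa1b differed between libraries in nearly every cell type and cut across the groups. In the whole lung Hspa1b made up 17.9% and 36.5% of the pair's UMIs in GAL and 33.4% and 22.8% in WT, with 95% exact binomial intervals of 17.5 to 18.4%, 36.0 to 37.0%, 32.5 to 34.2% and 22.1 to 23.5%. The intervals do not overlap and cover counting error only. GAL replicate 1 had the lowest share of the 4 libraries in all 18 types, and WT replicate 2 lay below WT replicate 1 in all 18 and below GAL replicate 2 in 17. The median share over types was 16.1% and 35.0% in GAL and 37.8% and 22.9% in WT. In T-like cells, for example, 143 and 920 UMIs of Hspa1b stood beside 430 and 951 of Hspa1a in GAL, and 179 and 83 beside 258 and 182 in WT. In NK-like cells of GAL replicate 2, Hspa1b made up 61.6% of the pair (interval 56.9 to 66.2%), so the order of the 2 genes was turned there. The order was also turned in innate lymphoid-like cells of that library, at 77.1% (interval 59.9 to 89.6%), from 27 UMIs of Hspa1b and 8 of Hspa1a.

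**Figure D3:**
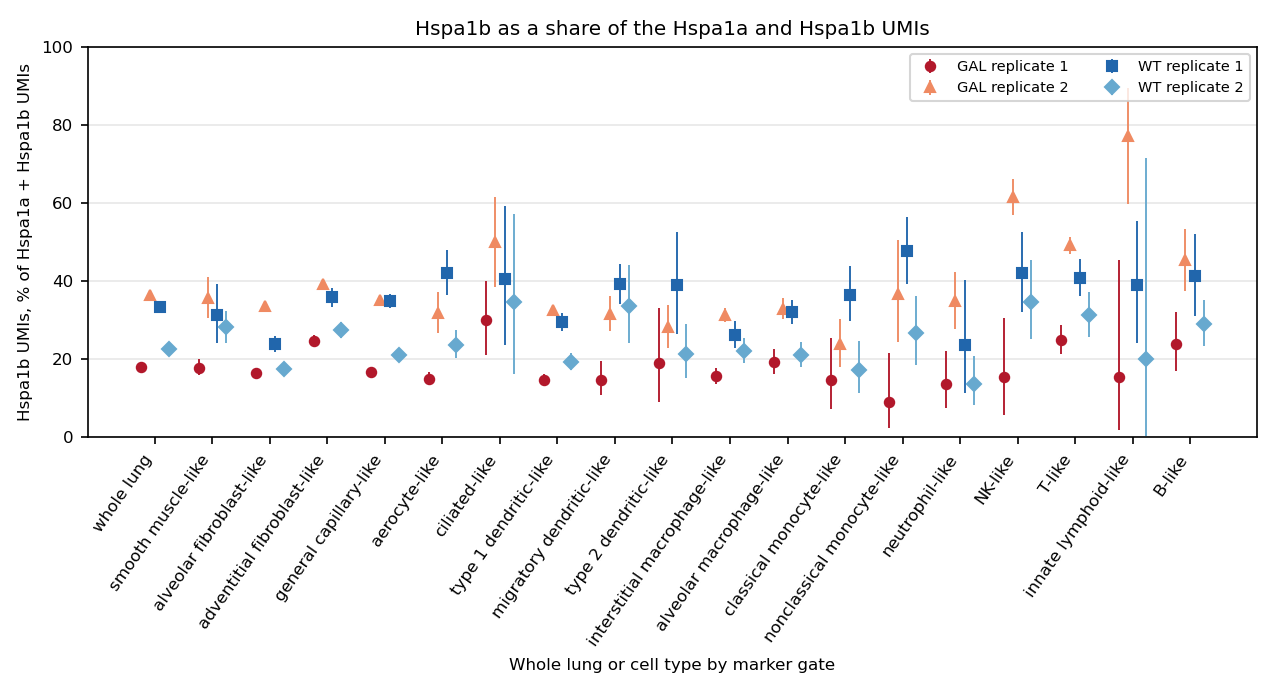
Hspa1b UMIs as a percentage of the Hspa1a and Hspa1b UMIs, in the whole lung and in each cell type, 1 point per library with its 95% exact binomial interval. GAL replicate 1 is lowest in every type and GAL replicate 2 is highest in 13 of 18, so the groups overlap.

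The second question was whether the genes differ between GAL and WT lungs. In the sum of all kept cells Hspa1a was above WT in both GAL libraries and Hspd1 below, but by the edgeR quasi-likelihood test 0 of the 10 members passed, as did 0 of 16821 genes (0%; 918 had an unadjusted p under 0.05, Hspa1a and Hspa1b among them). By DESeq2 1 member passed, Hspa1a, where 0.188% of 16494 genes did. With 2 libraries a group, an exact permutation test cannot give a p below 0.333, so these tests rest on the spread pooled over genes. Both groups are the same 4 libraries in every comparison below, and p-values measure only the spread between these samples.

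Hspa1a stood at 509 and 494 CPM in GAL lungs, against 180 and 238 CPM in WT lungs. The groups were well apart, with a log2 fold change of 1.26 ± 0.20 (SE), an edgeR adjusted p of 0.768 and a DESeq2 adjusted p of 0.00261. Without GAL replicate 2 the edgeR adjusted p was 0.0432, and over all alternatives, DESeq2 and limma included, the adjusted p lay between 0.00261 and 1.00. Hspa1b had 111 and 284 CPM in GAL and 89.9 and 70.2 CPM in WT, also without overlap, at 1.30 ± 0.47, but leaving out GAL replicate 2 gave 0.45 and leaving out GAL replicate 1 gave 1.82. When the counts of the pair were added into 1 gene, a choice made after seeing the data, the log2 fold change was 1.27.

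The partners of HSP70 lay higher on average. Bag3 had 127 and 79.8 CPM in GAL and 72.1 and 67.3 CPM in WT, without overlap (0.57 ± 0.26). Dnajb1 had 247 and 135 CPM in GAL and 97.1 and 140 CPM in WT, and GAL replicate 2 fell within the WT range (0.69 ± 0.36). Both rested on GAL replicate 1, with log2 fold changes of 0.19 each without it, and Dnajb1 had 0.43 without WT replicate 1 and 1.04 without GAL replicate 2. Hsph1 had 74.7 and 77.2 CPM in GAL and 66.3 and 63.6 CPM in WT (0.23 ± 0.14), and Hsp90aa1 1163 and 1061 CPM in GAL and 824 and 1009 CPM in WT (0.28 ± 0.19, and 0.12 without WT replicate 1). Hspb1 had 449 and 177 CPM in GAL and 160 and 260 CPM in WT, and rested on GAL replicate 1: its log2 fold change was 0.58 ± 0.51 with that library and −0.25 without it.

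The resting and mitochondrial members lay lower. Hspa8 had 1293 and 1156 CPM in GAL and 1329 and 1372 CPM in WT (−0.14 ± 0.17). Hspd1 had 141 and 144 CPM in GAL and 179 and 161 CPM in WT (−0.26 ± 0.15), and Hspe1 246 and 314 CPM in GAL and 379 and 292 CPM in WT (−0.26 ± 0.22, and −0.47 to −0.08 with 1 library left out). In all, 7 of 10 members had a positive fold change, as did 8668 of 16821 genes. For 7 members the groups did not overlap, 5 with GAL above and 2 below, where the groups did not overlap for 38.1% of all genes. The smallest edgeR adjusted p among the members was 0.768.

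**Figure D4:**
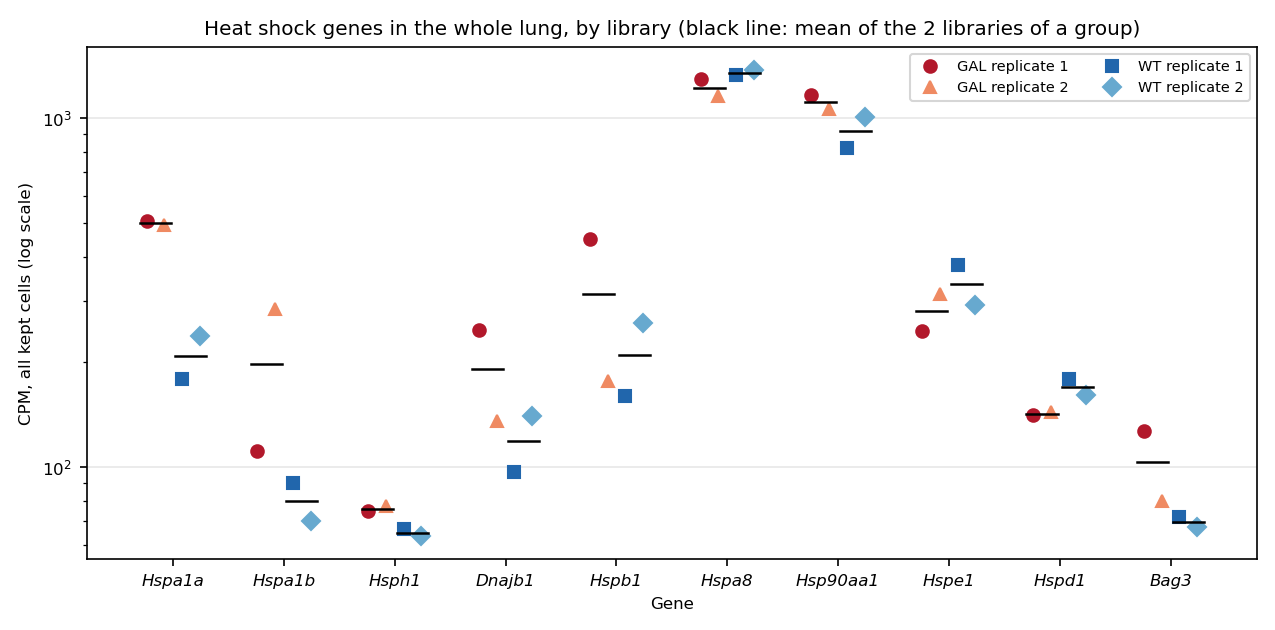
Level of each gene in the sum of all kept cells, in CPM on a log axis, 1 point per library and a black line at the mean of each group. The GAL points of Hspa1a (509 and 494 CPM) lie above both WT points (180 and 238 CPM), and the Hspb1 points of the 2 GAL libraries lie far apart.

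The whole-lung sum moves with the mix of cells, and the mix differed. Summed mesenchymal markers had 1004 and 478 CPM in GAL and 323 and 319 CPM in WT, and endothelial markers 544 and 329 CPM in GAL and 261 and 417 CPM in WT, and cells of both lineages are high in Hspa1a and Hspb1. When each of the 18 types was given the same weight in every library, Hspa1a kept a mean of 511 and 601 CPM in GAL against 271 and 381 CPM in WT, and the log2 difference was 0.78 (limma on log2(CPM + 1), unadjusted p 0.0035, adjusted p 1.00). Hspa1b then had 0.58, Dnajb1 0.19 and Bag3 0.12. The signs of Hspb1 (−0.24), Hsph1 (−0.14) and Hsp90aa1 (−0.02) turned. Hspe1 and Hspd1 had −0.22 each, with 139 and 141 CPM of Hspd1 in GAL against 160 and 166 CPM in WT.

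The depth of the cells differed as well, and the share of cells with a UMI was compared after thinning each cell to 1000 UMIs. Hspa1a was then found in 23.0% and 16.6% of GAL cells, against 9.35% and 10.4% of WT cells, and before thinning in 40.9% and 29.2% of GAL cells, against 16.3% and 18.5% of WT cells. Cells below 1000 UMIs were left out, 929 and 639 in GAL and 1077 and 1050 in WT. B-like cells, the type with the lowest level, had a thinned share of 3.43% and 2.89% in GAL and 1.497% and 1.85% in WT. Summed mesenchymal markers, which B cells should lack, stood at 54.7 and 53.4 CPM in GAL and 57.3 and 15.95 CPM in WT B-like cells. No type is known to lack Hspa1a, and a background share of Hspa1a was not measured. After thinning Bag3 was found in 10.8% and 5.92% of GAL cells and in 5.59% and 4.77% of WT cells. The highest number of Hspa1a UMIs in 1 cell was 120 and 169 in GAL and 64 and 82 in WT.

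Within single cell types, Hspa1a was the member most often higher in GAL. Its fold change was positive in 17 of the 18 types, with a median log2 of 0.78 and a range from −0.54 (nonclassical monocyte-like, 0.40 with doublets kept) to 1.66 (migratory dendritic-like). Both GAL libraries lay above both WT libraries in 12 types and below in 0, where over all genes and types 15.5% of pairs had GAL above and 15.4% had GAL below. The types use the same 4 libraries and are not separate tests. By edgeR 0 of 176 pairs of a member and a type passed, where 0.0152% of the 137764 pairs of a gene and a type did. No member passed by DESeq2 either, where 0.0797% of pairs of a gene and a type did. DESeq2 gave an adjusted p to only 127948 pairs of a gene and a type, and a pair without one could not pass. The smallest edgeR adjusted p of a member was 0.243. An unadjusted p under 0.05 was reached in 33 pairs, 9 of them Hspa1a, beside 4.05% of all pairs of a gene and a type. Levels below are CPM scaled within the type named.

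Hspa1a had 919 and 389 CPM in GAL migratory dendritic-like cells, against 165 and 253 CPM in WT, a log2 fold change of 1.66 ± 0.37. In T-like cells it had 77.1 and 147 CPM in GAL and 45.8 and 30.7 CPM in WT (1.55 ± 0.36), and in alveolar fibroblast-like cells 1442 and 2440 CPM in GAL and 828 and 1298 CPM in WT (0.87 ± 0.27). Aerocyte-like cells, the capillary cells of gas exchange, had 1336 and 786 CPM in GAL and 428 and 662 CPM in WT (0.97 ± 0.27). In classical monocyte-like cells it had 114 and 158 CPM in GAL and 78.0 and 63.1 CPM in WT (0.96 ± 0.26). The groups were apart in each of these 5 types, in cells with high and with low levels alike. Free RNA in the droplets can add UMIs to cells with low levels, and its part in these differences was not tested. Adjusted p-values by edgeR were 0.420, 1.00, 0.814, 0.288 and 0.243 in the order migratory dendritic-like, T-like, alveolar fibroblast-like, aerocyte-like and classical monocyte-like. Single libraries decided some of these: the adjusted p passed without GAL replicate 1 in T-like cells, without GAL replicate 2 in aerocyte-like cells, without GAL replicate 2 or WT replicate 2 in migratory dendritic-like cells and without WT replicate 1 in classical monocyte-like cells. Alveolar macrophage-like cells, at 42.7 and 66.3 CPM in GAL and 34.9 and 35.7 CPM in WT (0.63 ± 0.22), and adventitial fibroblast-like cells, at 742 and 1556 CPM in GAL and 663 and 729 CPM in WT (0.72 ± 0.29), had smaller values, and the adventitial one passed without GAL replicate 1. Without a filter on low counts 10 pairs passed, among them Hspa1a in aerocyte-like, alveolar fibroblast-like, migratory dendritic-like and type 1 dendritic-like cells. In these types, in that order, 46, 87, 13 and 71 genes passed in all under that setting. Hspa1b also had a positive fold change in 17 of 18 types (median 0.83), yet the groups were apart in 3. The exception was nonclassical monocyte-like cells, at 7.36 and 46.0 CPM in GAL and 143 and 27.4 CPM in WT, which overlap (−1.57 ± 0.78, edgeR adjusted p 0.589), from 4 and 21 UMIs in GAL and 66 and 28 in WT. This pair passed as lower without a filter on low counts (−1.59), without GAL replicate 2 (−3.33) and without WT replicate 2 (−2.47).

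In type 1 dendritic-like cells all 10 members had a positive fold change, as did 4012 of the 7725 genes tested there. An unadjusted edgeR p under 0.05 was reached by 7 members, beside 6.64% of all genes of the type. For 7 members both GAL libraries lay above both WT libraries, where this held for 18.6% of all genes of the type. Hspa1a had 1650 and 2361 CPM in GAL and 573 and 1357 CPM in WT (1.06 ± 0.32), and Dnajb1 302 and 367 CPM in GAL and 121 and 240 CPM in WT (0.92 ± 0.29). Hsph1 had 166 and 280 CPM in GAL and 91.3 and 147 CPM in WT (0.94 ± 0.30). Bag3 had 75.9 and 99.9 CPM in GAL and 34.0 and 62.9 CPM in WT (0.95 ± 0.30). In each of these WT replicate 1 was the lowest library and GAL replicate 2 the highest. Hspa1b, at 284 and 1146 CPM in GAL and 239 and 325 CPM in WT, rested on GAL replicate 2: the log2 fold change was 1.36 ± 0.46 with it and −0.0037 without it. The edgeR adjusted p of these 5 members was 0.635 to 0.638. Without a filter on low counts Hspa1a, Hspa1b, Hsph1 and Dnajb1 passed, among 71 genes of the type that did. The size of the differences depended on the library left out. Without WT replicate 2 the log2 fold change was 1.81 for Hspa1a, 1.58 for Hspa1b, 1.29 for Hsph1, 1.47 for Dnajb1 and 1.38 for Bag3. Without GAL replicate 1 it was 1.29 for Hspa1a, 2.02 for Hspa1b and 1.25 for Hsph1. Immediate early genes had 14348 and 16156 CPM in GAL and 9323 and 14512 CPM in WT in these cells, with WT replicate 1 lowest too, and all 18 had a positive fold change (median 0.38).

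Ciliated-like cells, the type with the highest levels of Hsp90aa1, Hsph1 and Hspd1, had lower values of these in both GAL libraries. Both GAL libraries lay below both WT libraries for 6 members, where 16.9% of all genes of the type did, and the median log2 fold change over the 10 members was −0.47. Hsp90aa1 had 6279 and 6133 CPM in GAL and 8612 and 8768 CPM in WT (−0.49 ± 0.25). Hsph1 had 518 and 335 CPM in GAL and 792 and 843 CPM in WT (−0.93 ± 0.24), and Hspb1 154 and 135 CPM in GAL and 305 and 220 CPM in WT (−0.84 ± 0.24). Hspe1 had 440 and 219 CPM in GAL and 653 and 506 CPM in WT (−0.78 ± 0.29), and Hspd1 357 and 305 CPM in GAL and 439 and 527 CPM in WT (−0.54 ± 0.22). Hspa1a, low in these cells, was higher, at 103 and 117 CPM in GAL and 75.2 and 45.2 CPM in WT (0.88 ± 0.31), from 70 and 39 UMIs in GAL and 19 and 15 in WT. The groups of each of these 6 genes were apart. The sums rest on 69 and 37 cells in GAL and 40 and 42 in WT, and the edgeR adjusted p was 0.992 for each. Hsph1 passed without WT replicate 1 (adjusted p 0.0468) and Hspb1 without WT replicate 2 (0.0335). Among the members, Dnajb1 too had both GAL libraries above both WT libraries in ciliated-like cells. In the scaling over all types it had 349 and 296 CPM in GAL and 267 and 247 CPM in WT. Of the other genes of the heat shock system listed for this work, 44 were tested in ciliated-like cells, 18 with both GAL libraries below both WT libraries and 5 above. Cacybp, the J-domain gene Dnaja1 and the HSP90 cochaperones Ahsa1 and Stip1 had the smallest p, with log2 fold changes of −0.79, −0.80, −0.67 and −0.62 and adjusted p of 0.992.

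NK-like cells had a positive fold change in all 10 members, as in 3419 of the 6855 genes tested there. Hsp90aa1 had 1123 and 2185 CPM in GAL and 840 and 962 CPM in WT (0.87 ± 0.30), and Hspa8 1155 and 1607 CPM in GAL and 910 and 864 CPM in WT (0.64 ± 0.24). Hsph1 had 79.1 and 162 CPM in GAL and 51.7 and 69.1 CPM in WT (0.96 ± 0.34), and Dnajb1 94.9 and 133 CPM in GAL and 67.7 and 73.7 CPM in WT (0.68 ± 0.27). For these 4 members both GAL libraries lay above both WT libraries, as for 13.5% of all genes of the type, and GAL replicate 2 was the higher of them (edgeR adjusted p 1.00 each). In alveolar macrophage-like cells, by contrast, Hsph1 was lower in both GAL libraries, at 40.4 and 32.6 CPM against 59.7 and 48.2 CPM in WT (−0.57 ± 0.17, edgeR adjusted p 0.995).

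**Figure D5:**
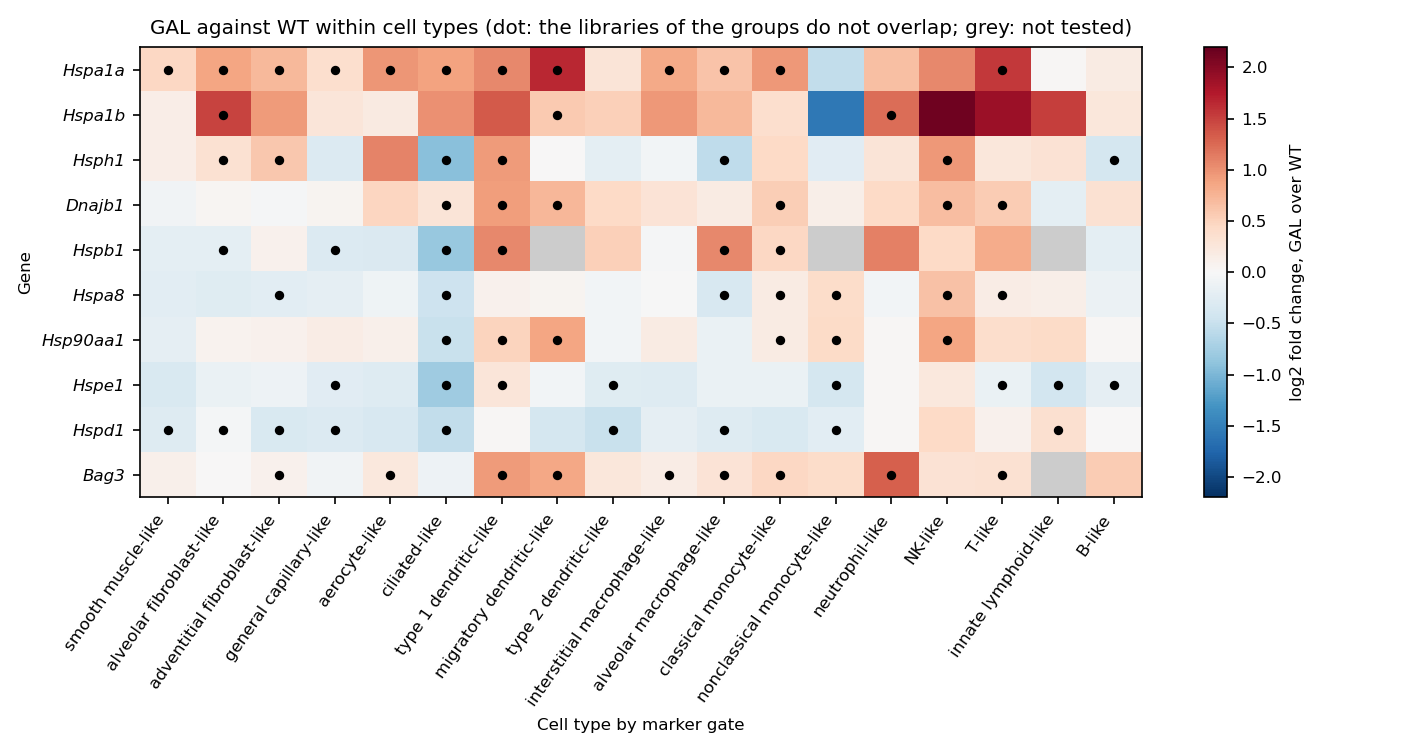
Log2 fold change of GAL over WT for each gene (rows) in each of 18 cell types (columns), red where GAL is higher and blue where it is lower. A dot marks pairs whose GAL and WT libraries do not overlap, as for Hspa1a in 12 types, and grey fields were not tested.

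The mitochondrial pair leaned lower in GAL across types. Of 18 types, Hspd1 was lower in both GAL libraries in 8 and higher in 1, and Hspe1 lower in 7 and higher in 1, while Hspa8 was lower in 3 and higher in 4. Over all pairs of a gene and a type, 15.4% were lower and 15.5% higher in both GAL libraries, and Hspa8 lay near these shares. The median log2 fold change over types was −0.25 for Hspd1 and −0.17 for Hspe1, with 1 unadjusted p under 0.05 each, in ciliated-like cells. For Bag3, both GAL libraries were above in 9 of the 17 types tested and below in 0, beside the same shares of all pairs, with a median of 0.30. Neutrophil-like cells had the largest value of Bag3, at 19.2 and 15.7 CPM in GAL and 8.39 and 5.31 CPM in WT (1.31 ± 0.48), from 12 and 34 UMIs in GAL and 10 and 7 in WT.

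Whether the difference between GAL and WT varies with the cell type was tested over the 6 types whose smallest library held most cells, T-like, B-like, alveolar macrophage-like, interstitial macrophage-like, general capillary-like and adventitial fibroblast-like. The edgeR test of the interaction called 0 of 10 members and 0 of 13948 genes (0%). Hsph1 had the smallest unadjusted p, 0.0402, with an adjusted p of 1. Without a filter on low counts 3 members passed, and the number of all genes that passed was not recorded.

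The other genes of the heat shock system were more often lower than higher in GAL. Of 61 listed genes (further HSP70, HSP90, small heat shock and J-domain proteins, cochaperones, the cytosolic chaperonin, mitochondrial proteases and heat shock factors), 20 had a positive fold change in the whole lung and the median was −0.12, where the median of all genes was 0.01. In 4 both GAL libraries lay above both WT libraries and in 24 below, where 20.1% of all genes lay above and 18% below, and 0 of the 61 passed by edgeR. The 4 with the smallest p were Cacybp (82.2 and 75.9 CPM in GAL, 127 and 113 CPM in WT, −0.60 ± 0.16), Stip1 (−0.39 ± 0.15), Hspa4 (−0.38 ± 0.15) and Hspb8 (1.13 ± 0.50), a small heat shock protein. Hspb8 was the only one of these that was higher. It had 37.3 and 13.8 CPM in GAL and 10.1 and 13.2 CPM in WT, so the difference lay mainly in GAL replicate 1. The immediate early genes had a positive fold change in 17 of 18, with a median of 0.26, and a sum of 19135 and 11208 CPM in GAL against 10903 and 12669 CPM in WT. Within types this sum was higher in both GAL libraries in 4 of 18 types and lower in both in 2. Its part in the level of the inducible members was not tested.

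Types with fewer than 30 cells in some library were not tested, and pericyte-like cells are given as a description. With 83 and 52 cells in GAL and 16 and 33 cells in WT, a UMI of Hspa1a was found in 88.0% and 75.0% of GAL cells and 50.0% and 45.5% of WT cells, and after thinning in 86.4% and 66.0% of GAL cells and 66.7% and 60.0% of WT cells. Alveolar type 2-like cells numbered 2 in GAL replicate 2, so no comparison was made in them.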

How the data were processed

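The authors deposited UMI counts per gene and cell barcode, with no normalization; fastp, STAR, Seurat and GRCm38 are named per the submitters' processing notes, and the annotation and the handling of reads shared by genes are not given in the sources used here. Libraries held 12275 and 12045 barcodes (GAL) and 14213 and 15583 (WT), with 56218178 to 62406681 UMIs. Cells were kept from 500 UMIs and 300 genes upward, with a mitochondrial share of 20% or less. The cells with the highest Scrublet scores (scanpy 1.11.5) were removed as doublets at 0.8% per 1000 cells, 1181, 1130, 1571 and 1901 cells in the order above, a rule set after the automatic thresholds had marked 0.01% to 5.94%. A cell was placed in the type with the most detected markers, at least 3 and more than for any other type. That rule was set after gate sizes and lineage markers, but not the values of the members, had been seen.

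Counts were summed per library and type and tested with edgeR 4.0.16 (R 4.3.3; quasi-likelihood, TMM, filterByExpr, Benjamini-Hochberg over all genes), with limma 3.58.1 and DESeq2 1.42.0 as alternatives. Library replicates were numbered in accession order, and the labels do not say whether they are separate animals. The fits were tested on simulated data. Intervals cover counting error only. The members are named in every comparison; other genes named are those most alike per member (Pearson's r, log2 CPM + 1) and those with the smallest p of the listed heat shock genes. The members and lists were chosen with earlier results of these data known.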

Additional observations from a re-analysis of the deposited data

Results flagged for a closer look

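For 6 members some cell types had both GAL libraries above both WT libraries while others had both below, and the difference between those types was not tested outside the 6 types of the interaction fit. Hsph1 was above in 4 types and below in 3. Hspb1 was above in 3 types and below in 3. Hspa8 was above in 4 types and below in 3. Hsp90aa1 was above in 5 types and below in 1, ciliated-like cells. Hspe1 was above in 1 type, type 1 dendritic-like cells, and below in 7. Hspd1 was above in 1 type and below in 8. The same 4 libraries enter every type, and 15.5% (above) and 15.4% (below) of all pairs of a gene and a type showed such separation. Hsph1, Hspb1 and Hspa8 lay near these shares in both directions, so their counts do not stand out from other genes. How many of all genes had types in both directions was not counted.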

How the results depend on the processing

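No paired analysis was possible because the labels give the libraries of GAL and WT no shared replicate numbers. Counted over all 176 pairs of a member and a type between GAL and WT, 44 of 1914 alternative values newly passed, 39 higher and 5 lower in GAL, in 28 pairs, and 147 changed sign, in 84 pairs. Among the 10 whole-lung values and 36 of these pairs (unadjusted p under 0.05, or named above) 7 changed sign. They were whole-lung Hspb1 without GAL replicate 1 (−0.25, against 1.08 without GAL replicate 2), Hsph1 (−0.14), Hspb1 (−0.24) and Hsp90aa1 (−0.023) with equal cell mix, Hspa1a in nonclassical monocyte-like cells with doublets kept (0.40) and without WT replicate 1 (0.018, against −1.02 without WT replicate 2), and Hspa1b in type 1 dendritic-like cells without GAL replicate 2 (−0.0037, against 2.02 without GAL replicate 1). The whole-lung count of members called was 1 by DESeq2 and 0 to 1 when 1 library was left out. Within types 10 pairs passed without a filter on low counts, as did 3 members of the interaction, and 2 to 14 pairs passed when 1 library was left out. The causes were not tested. Other genes passed as well. Without a filter on low counts, the types of these 10 pairs had from 12 (NK-like) to 144 (nonclassical monocyte-like) passing genes in all. A share over all genes was not worked out for the 44 values or for the fits with 1 library left out. Those counts therefore do not show whether members passed more often than other genes. Where a group is left with 1 library, that library is assumed to vary like the other group. Levels across types gave 124 to 140 called pairs with 1 library left out, and 137 to 142 with the other alternatives. Thinning moved the difference between GAL and WT in the share of cells with Hspa1a to 9.94 percentage points. Depth was low in some pairs, as for Bag3 in neutrophil-like cells, from 7 to 34 UMIs a library.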
